A study of Saccharomyces cerevisiae with 10 samples.

Results

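The cytosolic Hsp70 chaperone machinery of budding yeast was followed through its mRNAs after a shift of the cells from 24 to 37 °C. The genes were chosen by systematic name, as 10 of the 6717 yeast genes in the deposited table, and all 10 were present and measured in every library. They are the 4 Hsp70 genes SSA1 (YAL005C), SSA2 (YLL024C), SSA3 (YBL075C) and SSA4 (YER103W), the 3 J-domain (Hsp40) genes YDJ1 (YNL064C), SIS1 (YNL007C) and APJ1 (YNL077W), and the 3 genes for nucleotide exchange factors FES1 (YBR101C), SSE1 (YPL106C) and SSE2 (YBR169C). RNA was taken from mid-log cultures of the rpb1-1/caf1 mutant at 0 min, before the shift, then at 3, 6, 8 and 10 min and later at 15, 20, 30, 45 and 60 min after it, with 1 library per time point. Values of a gene in the libraries are given in this order. All libraries therefore share a temperature-sensitive allele of the largest subunit of RNA polymerase II (rpb1-1), which is meant to stop mRNA synthesis at 37 °C, and a caf1::HIS3 replacement of a deadenylase gene, in a MATa strain that also carries mutant alleles of URA3, HIS3 and LEU2. The labels name the strain as yJC1257 in one field and as yJC244, the parent type without the deletion, in another. Only the 0 min library comes from cells at 24 °C. No later library of cells kept at 24 °C or with a polymerase that works at 37 °C, and none with CAF1, was analysed here. The heat shift, the polymerase allele, the CAF1 deletion and the time after the shift therefore cannot be told apart.

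Hsp70 proteins bind unfolded stretches of other proteins and release them in a cycle driven by ATP. J-domain proteins bring substrates to Hsp70 and start ATP hydrolysis, and nucleotide exchange factors open the Hsp70 so that ADP leaves and the substrate is let go. Of the yeast SSA genes, SSA1 and SSA2 are those expressed during growth, while SSA3 and SSA4 are known as genes induced by stress. The heat shock factor Hsf1 drives many chaperone genes through heat shock elements in their promoters.

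The form of heat shock element searched here is built from GAA and TTC units in alternation, spaced by 2 bases. Units at other spacings were not searched, so few or no matches do not mean that an element is absent. The 500 bases before each start codon were read from the R64 reference by gene name and searched on both strands for GAANNTTC or TTCNNGAA, where N is any base. Of the 10 genes, 9 held at least one such pair, as did 35.1% of 5992 upstream regions of genes in the table. A run of 3 alternating units, which contains overlapping pairs, was present upstream of 5 of the 10 (SSA1, SSA2, SIS1, FES1 and SSE1) and of 1.49% of all regions. A run of 4 units was present upstream of SSA1 and SIS1, against 0.267% of all regions. SSA3, one of the genes with the largest change in these libraries, had no pair in this window. The stress response element AGGGG, read as CCCCT on the other strand, was present upstream of SSA1, SSA4, APJ1 and SSE2, and of 34.1% of all regions. These matches describe letters and were not measured as bound sites. The longest alternating run of the 5 genes with at least 3 units, and that of SSA4, which has a single pair, are printed, the first as the runs that set these genes apart from most upstream regions and the last as the single pair of the gene with the largest change. The units are in capitals, and each line is read 5′ to 3′ on the strand of the gene. Each of the 10 genes has 1 coding exon in R64, with SSA1 at chrI:139503-141431, SSA2 at chrXII:95566-97485, SSA3 at chrII:84499-86448, SSA4 at chrV:364589-366517, YDJ1 at chrXIV:505868-507097, SIS1 at chrXIV:618507-619565, APJ1 at chrXIV:481391-482977, FES1 at chrII:443821-444693, SSE1 at chrXVI:350194-352275 and SSE2 at chrII:573915-575996. The printed stretches lie at chrI:141768-141805 (minus strand) for SSA1, chrXII:97696-97728 (minus) for SSA2, chrXIV:619877-619919 (minus) for SIS1, chrII:444842-444874 (minus) for FES1, chrXVI:352439-352471 (minus) for SSE1 and chrV:364326-364353 (plus) for SSA4.
SSA1: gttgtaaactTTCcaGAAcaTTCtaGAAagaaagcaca
SSA2: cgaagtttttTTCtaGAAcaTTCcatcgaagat
SIS1: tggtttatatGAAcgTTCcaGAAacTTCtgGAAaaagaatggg
FES1: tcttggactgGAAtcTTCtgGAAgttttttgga
SSE1: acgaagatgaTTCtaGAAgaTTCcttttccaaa
SSA4: atgaagtacaTTCtaGAAgttcctagaa
The first unit of SIS1 begins 344 bases before the start codon and its run has 5 units, the longest among the 10 genes. The run of SSA1 has 4 units and begins 364 bases before the start codon, and those of FES1 and SSE1 begin 171 and 186 bases before it.

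**Figure D1:**
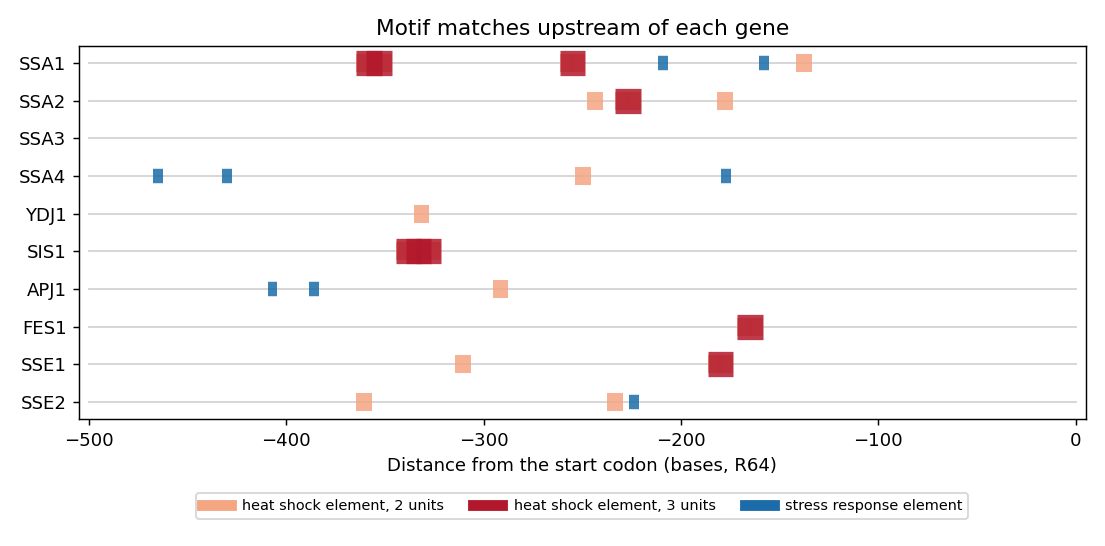
Matches to the heat shock element (pairs and runs of 3 units) and to the stress response element in the 500 bases before the start codon of each gene; the x axis is the distance from the start codon in bases and each row is a gene. Runs of 3 units appear upstream of SSA1, SSA2, SIS1, FES1 and SSE1, and the row of SSA3 is empty.

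The deposited values are FPKM, fragments per kilobase of transcript and per unit of sequencing depth, and each was divided here by the summed FPKM of the ERCC spike-in RNAs of its library relative to 0 min. That factor lay between 1.05 and 1.42 in the later libraries. It was 1.25 at 8 min and 1.05 at 10 min, so scaled levels step up between these libraries in most genes, and 79.6% of 6045 genes were higher at 10 min than at 8 min with the scaling against 47.1% without it. POP2, the listed name of CAF1, had a scaled FPKM of at most 0.887 in any library, as a deletion would give. HIS3 was listed at 0 throughout, which goes against the HIS3 marker of the stated replacement, and the reason was not tested. Low FPKM values fall on steps of whole fragments, from which 2310503 to 5030227 fragments per library were estimated. The smallest estimate behind a value of the 10 genes was 98.9 fragments, for APJ1 at 60 min, and the counting error of a ratio to 0 min was at most 14.2% for APJ1 and at most 6.32% for the others. Counting error is not replicate error, which cannot be had from 1 library per time point.

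Most of the 10 mRNAs rose over the first 10 min, and none fell. In slope fits with limma over 0, 3, 6, 8 and 10 min, on log2(scaled FPKM + 1) for 6045 genes with a mean of at least 1, SSA1, SSA2, SSA3, SSA4, APJ1, FES1 and SSE2 rose with a Benjamini-Hochberg adjusted p under 0.05, which is 7 of 10, against 1.69% of all genes tested. Of the 10, 0 fell, against 27.4% of all genes. YDJ1, SIS1 and SSE1 also had slopes above 0 but did not pass; SIS1 and SSE1 passed in the values as deposited, and YDJ1 with libraries scaled to the same summed yeast FPKM. The median slope of the 10 was 1.13 on the log2 scale per 10 min, and that of all genes was -0.68. The count depends on single libraries of this short series. Without the 0, the 3 or the 8 min library no gene of the whole table passed in either direction and the count was 0 of 10, and it was 4 without the 6 min library and 6 without the 10 min library. Libraries of a time series from a culture are not independent samples, and the p-values measure only the scatter of these libraries around a line.

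**Figure D2:**
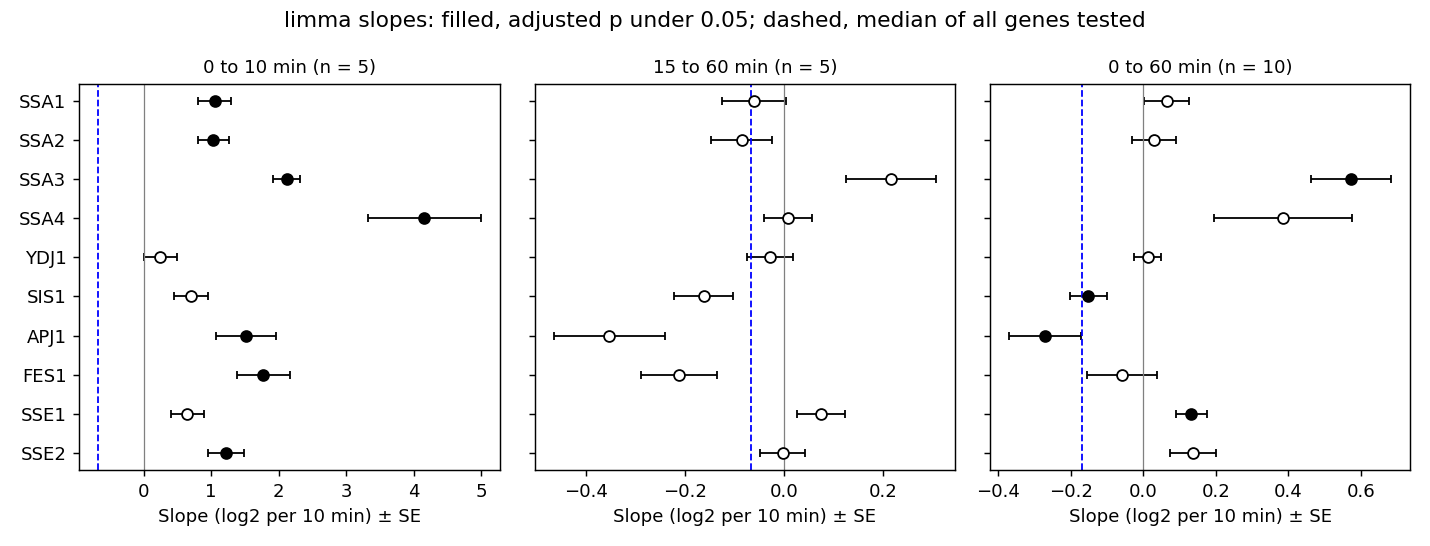
Slopes of log2(scaled FPKM + 1) over time with their standard errors from limma, on the x axis in log2 units per 10 min, for each gene (rows) over 0 to 10, 15 to 60 and 0 to 60 min. Filled points have an adjusted p under 0.05 and the dashed lines mark the median of all genes tested, -0.68, -0.07 and -0.17; all 10 genes lie to the right of that line in the first panel.

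The stress-induced Hsp70 mRNA SSA4 had the largest change of the 10. Its scaled FPKM was 59.6, 554, 913, 1038 and 1427 up to 10 min, and 1363, 1594, 1526, 1689 and 1415 from 15 min on. The level was thus 9.28 times that of 0 min within 3 min, 23.9 times at 10 min, and stayed between 22.8 and 28.3 times in all libraries from 10 min on. The slope over the first 10 min was 4.16 ± 0.83 on the log2 scale per 10 min (SE, adjusted p = 0.0272 in limma), the 8th highest of 6045 genes. Without the 0 min library it was 1.88 ± 0.41 (adjusted p = 0.298). The slope over 15 to 60 min was 0.01 ± 0.05 (adjusted p = 0.944), which shows neither a rise nor a fall beyond the scatter.

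SSA3, the other stress-induced Hsp70 gene, started at nearly the same level as SSA4 and climbed more slowly and for longer. Its scaled FPKM was 55.7, 89.5, 139, 174 and 255 up to 10 min, and 323, 495, 775, 667 and 752 from 15 min on. Every library up to 30 min was higher than the library before it, and the level at 60 min was 13.5 times that at 0 min. SSA3 rose over the first 10 min, with a slope of 2.12 ± 0.20 log2 units per 10 min (adjusted p = 0.0206). It also rose over the whole hour, at 0.57 ± 0.11 (adjusted p = 0.00203), the 3rd highest slope of all genes tested, and this call held under all 17 alternative settings with a slope. Over 15 to 60 min its slope was 0.22 ± 0.09 (adjusted p = 0.304).

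SSA1 and SSA2, the SSA genes of growing cells, changed in parallel and less. SSA1 had a scaled FPKM of 739, 1107, 1258, 1262 and 1709.6 up to 10 min, and 1436, 1759.7, 1379, 1747 and 1173 from 15 min on. SSA2 had 309.8, 470.0, 526, 552 and 694 up to 10 min, and 601, 707, 507, 639 and 455 from 15 min on. Both were highest at 20 min (SSA1 at 45 min in the values as deposited), at 2.38 times the 0 min level for SSA1 and 2.28 times for SSA2, and all 9 later libraries were above 0 min for each. Both rose over the first 10 min, with slopes of 1.05 ± 0.24 for SSA1 (adjusted p = 0.0325) and 1.03 ± 0.23 for SSA2 (adjusted p = 0.0317). The 2 coding sequences are identical at 96.8% of aligned bases, and 45.8% of the 100-base words of SSA1 and 46.0% of those of SSA2 occur elsewhere in the R64 genome, so the split of fragments between them is uncertain. The other 8 genes hold no such shared word, and SSA3 and SSA4 are identical at 77.6% of aligned bases. How fragments with several matches were counted is not known, so the levels of SSA1 and SSA2 against the other genes are also uncertain.

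The make-up of cytosolic Hsp70 mRNA differed between early and late libraries. SSA4 made up 5.13% of the summed SSA level before the shift, 24.9% after 3 min, 34.9% after 10 min and 37.3% after 60 min. SSA3 made up 4.79% before the shift and 6.25% after 10 min, and then 18.5% after 30 min and 19.8% after 60 min. SSA1 made up 63.5% at 0 min and 30.9% at 60 min, and SSA2 26.6% at 0 min and 12.1% at 30 min. The stress-induced pair together held 9.91% of the summed SSA level before the shift and 57.1% after 60 min. Other Hsp70 genes, such as SSB1 and SSB2, are not in this sum. These shares come from FPKM, which is per length, and do not depend on the spike-in factor. They do depend on how fragments with several matches were counted for SSA1 and SSA2, which is not known.

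**Figure D3:**
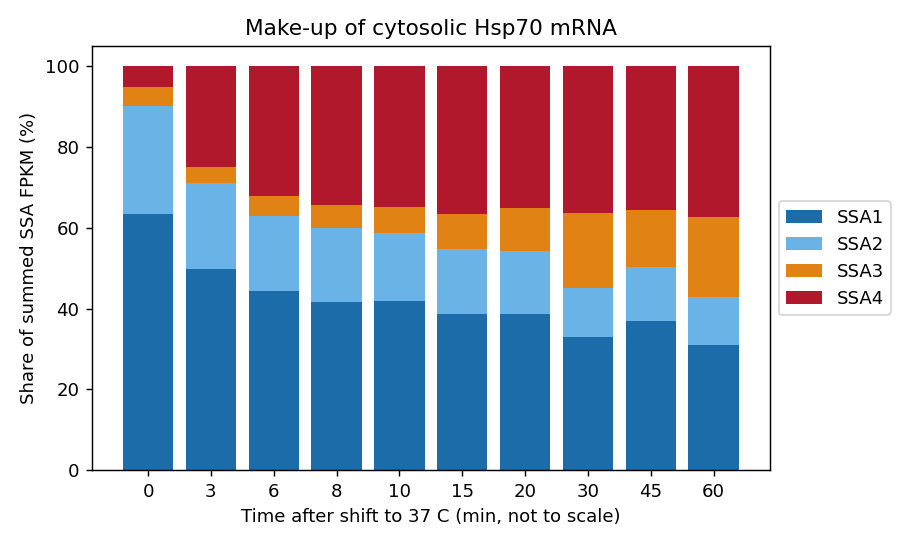
Share of the summed SSA FPKM held by each of the 4 SSA genes (stacked bars, in %) at each time point, with times on the x axis not to scale. SSA4 widens within 3 min, from 5.13 to 24.9%, and SSA3 mostly after 15 min, to 19.8% at 60 min.

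The 3 J-domain mRNAs differed from each other. YDJ1, which encodes a main partner of the Ssa proteins, had a scaled FPKM of 217, 242, 216, 220.1 and 288 up to 10 min, and 234, 281, 255, 255 and 228 from 15 min on. All values lay between 1.00 and 1.33 times the 0 min level. With the spike-in scaling no slope over the 3 time ranges passed, with values of 0.25 ± 0.25 log2 units per 10 min over 0 to 10 min (adjusted p = 0.440) and 0.01 ± 0.04 over 0 to 60 min (adjusted p = 0.807). With libraries scaled to the same summed yeast FPKM, YDJ1 passed as rising over both ranges, at 0.49 ± 0.12 (adjusted p = 0.0433) and 0.15 ± 0.04 (adjusted p = 0.0112).

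SIS1, an essential J-domain gene, and APJ1, which encodes a J-domain protein of low abundance, were highest at 10 min and lowest at 60 min. SIS1 had a scaled FPKM of 246, 355, 378, 354 and 448 up to 10 min, and 303, 337, 212, 238 and 185 from 15 min on. APJ1 had 17.4, 50.5, 46.7, 57.2 and 60.5 up to 10 min, and 41.5, 40.5, 17.0, 27.4 and 11.1 from 15 min on. SIS1 was highest at 10 min, at 1.82 times the 0 min level, and APJ1 too, at 3.49 times, while at 60 min they stood at 0.752 and 0.637 times. The 10 min library has a low spike-in factor, and the highest level of APJ1 is at 8 min in the values as deposited.

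APJ1 rose over the first 10 min, at 1.52 ± 0.44 log2 units per 10 min (adjusted p = 0.0498), next to the threshold, and passed in 2 of 11 alternative settings. Without the 0 min library the slope was 0.42 ± 0.42 (adjusted p = 0.634). SIS1 had a slope of 0.70 ± 0.25 (adjusted p = 0.0754) and did not pass. Over the whole hour both fell, by 0.15 ± 0.05 log2 units per 10 min for SIS1 (adjusted p = 0.0281) and by 0.27 ± 0.10 for APJ1 (adjusted p = 0.0371). The fall of SIS1 did not pass without the 3, the 6 or the 60 min library (adjusted p of 0.0534, 0.0522 and 0.171), nor that of APJ1 without the 3, 6, 8, 10, 30 or 60 min library (up to 0.344 without the last, with a slope of -0.17). Per square root of time neither fall passed (0.0847 for SIS1 and 0.160 for APJ1). Neither passed without spike-in scaling, at -0.09 for SIS1 and -0.21 for APJ1, or with libraries scaled to the same summed yeast FPKM, at -0.01 and -0.14, and at 60 min SIS1 was then at 1.07 and 1.43 times its 0 min level and APJ1 at 0.906 and 1.21 times.

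**Figure D4:**
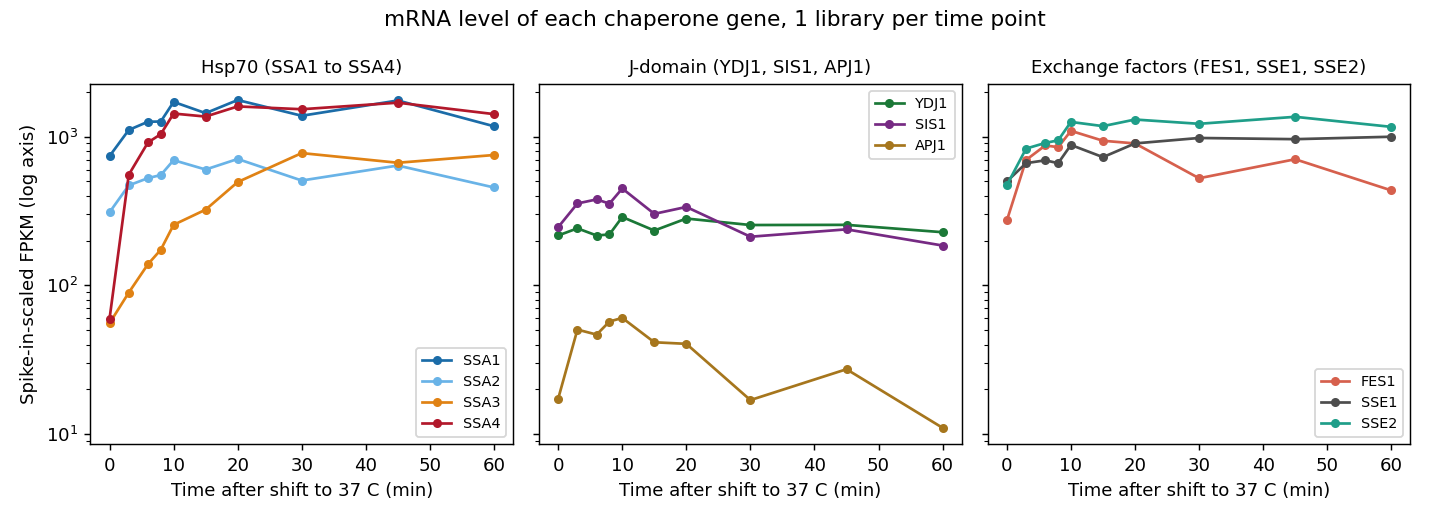
Spike-in-scaled FPKM of each gene (y axis, log scale) against time after the shift in min (x axis), in a panel per role, with 1 library per point and no error bars for lack of replicates. SSA4 and SSA3 cross SSA2 after the shift, and in the middle panel SIS1 and APJ1 are highest at 10 min, at 448 and 60.5.

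Among the exchange factors, FES1 was highest early and SSE1 last. FES1, whose product releases nucleotide from Ssa proteins, had a scaled FPKM of 273, 696, 872, 848 and 1092 up to 10 min, and 937, 899, 525, 704 and 435 from 15 min on. It was highest at 10 min (at 15 min in the values as deposited), and the level at 60 min was 1.59 times that of 0 min and 39.8% of the highest. FES1 rose over the first 10 min, at 1.77 ± 0.39 log2 units per 10 min (adjusted p = 0.0312), or 0.83 ± 0.41 without the 0 min library (adjusted p = 0.399). Its slope over the hour was -0.06 ± 0.10 (adjusted p = 0.610 in limma). Without the 0 min library it passed as falling, at -0.16 ± 0.05 (adjusted p = 0.0328).

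SSE1 and SSE2 encode Hsp110 proteins, relatives of Hsp70 that act as exchange factors. SSE1 had a scaled FPKM of 499.7, 663, 693, 662 and 878 up to 10 min, and 727, 899, 978, 960.4 and 997 from 15 min on. SSE2 had 471, 830.2, 906, 943 and 1254 up to 10 min, and 1175, 1301, 1218, 1357 and 1162 from 15 min on. Nearly equal before the shift, SSE2 was ahead of SSE1 in all 9 later libraries. SSE2 rose over the first 10 min, at 1.22 ± 0.27 log2 units per 10 min (adjusted p = 0.0312), or 0.77 ± 0.42 without the 0 min library (adjusted p = 0.430), while the slope of SSE1 was 0.65 ± 0.24 (adjusted p = 0.0824). SSE1 was the only one of the 10 with its highest level at 60 min (SSA3 also in the values as deposited), and it rose over the hour at 0.13 ± 0.04 (adjusted p = 0.0227), under all 17 alternative settings with a slope, at 0.20 in the values as deposited and 0.27 with libraries scaled to the same summed yeast FPKM. SSE2 had 0.14 ± 0.06 over the hour (adjusted p = 0.0898).

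Over the whole hour, then, SSA3 and SSE1 rose and SIS1 and APJ1 fell, which is 2 of 10 in each direction, against 1.6% of all genes rising and 52.8% falling. Without the 3, the 6 or the 60 min library the count in both directions was 2 instead of 4. With libraries scaled to the same summed yeast FPKM, rising genes made up 32.4% of all calls instead of 2.95%, and 5 of the 10 genes passed (SSA1, SSA3, YDJ1, SSE1 and SSE2), all of them rising. In the values as deposited 3 passed (SSA3, SSE1 and SSE2), all rising. Against the square root of time 4 genes passed too, but they were SSA3, SSA4 (adjusted p = 0.00724), SSE1 and SSE2 (adjusted p = 0.00672), all rising. A straight line over the hour misses a rise that stops or turns. A natural spline with 3 degrees of freedom, tested for any change, passed for 9 of the 10, all but YDJ1, against 72% of all genes. Over 15 to 60 min limma called 0 of the 10 rising and 0 falling, against 0% of all genes in each direction. Without adjustment, 3 of the 10 (SIS1, APJ1 and FES1) and 983 of 6045 genes had a p under 0.05 in that range. Their slopes were -0.16 ± 0.06 for SIS1, -0.35 ± 0.11 for APJ1 and -0.21 ± 0.08 for FES1, each with an adjusted p of 0.300.

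Relative to 0 min, the median of the 10 genes at 3, 10, 20, 45 and 60 min was 1.56, 2.49, 2.36, 2.21 and 1.59. At the same times the median of 5991 genes tested that were above 0 at 0 min was 0.823, 0.664, 0.503, 0.459 and 0.359. At 60 min 8 of the 10 were above their 0 min level, all but SIS1 and APJ1, against 7.36% of all genes. Leaving out the spike-in scaling lifts every gene at 60 min by 0.51 on the log2 scale, and scaling to the same summed yeast FPKM by 0.93, and 9 and 10 of the 10 genes were then above 0 min. No half-life is given, since an exponential decay fitted with the study's filters passed for 0 of the 10.

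**Figure D5:**
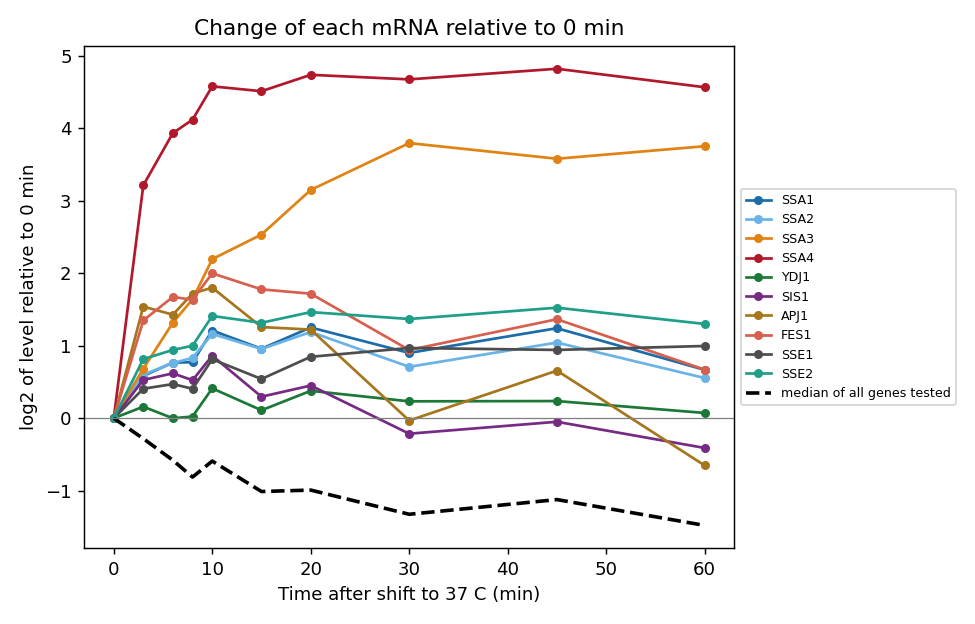
Level of each gene relative to 0 min on the log2 scale (y axis) against time after the shift in min (x axis), with the median of all genes tested as a dashed line. The 10 genes lie above the dashed line in every later library, SSA4 and SSA3 highest, at 23.7 and 13.5 times the 0 min level at 60 min.

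Ratios of like members within a library remove the spike-in factor, and the log2 ratios tested, with 1 added to each scaled FPKM, nearly do. Slopes of 6 log2 ratios over the hour were tested by permuting the order of the 10 libraries 100000 times, two-sided, with Benjamini-Hochberg adjustment over the 6. Such a permutation treats the libraries as free to swap places, which successive time points of a culture are not. Any steady drift can then give a small p, and these p-values do not measure the spread between replicates. The SSA3/SSA2 ratio was 0.180 at 0 min and 1.65 at 60 min and rose by 0.54 ± 0.09 log2 units per 10 min (adjusted p = 0.00054, permutation test). The SSA4/SSA2 ratio was 0.193 before the shift and 1.18, 2.06 and 3.11 after 3, 10 and 60 min, with a slope of 0.35 ± 0.17 that did not pass (adjusted p = 0.108, permutation test). Without the 0 min library it passed, at 0.18 ± 0.05 (adjusted p = 0.00993, permutation test).

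The SIS1/YDJ1 ratio was 1.14 before the shift, 1.75 after 6 min and 0.814 after 60 min and fell by 0.16 ± 0.04 log2 units per 10 min (adjusted p = 0.011, permutation test). The APJ1/YDJ1 ratio was 0.0801 before the shift, 0.260 after 8 min and 0.0485 after 60 min and fell by 0.28 ± 0.10 (adjusted p = 0.0353, permutation test). This call was lost without any one of the 3, 6, 8, 10, 15, 30 or 60 min libraries, with an adjusted p of 0.241 without the last. The SSA1/SSA2 ratio stayed between 2.29 and 2.73 in all libraries, with a small slope of 0.03 ± 0.01 that passed (adjusted p = 0.0215, permutation test). The call was lost without the 45 min library (adjusted p = 0.067, permutation test). Without the 60 min library the slope was 0.06 and passed (adjusted p = 0.00693, permutation test). The fragments of SSA1 and SSA2 cannot be fully told apart, so the levels of the SSA3/SSA2 and SSA4/SSA2 ratios are uncertain too. The SSE2/SSE1 ratio was 0.944 before the shift, 1.62 after 15 min and 1.17 after 60 min and showed no straight trend (slope 0.00 ± 0.04, adjusted p = 0.902, permutation test).

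SSA mRNA was more abundant relative to the members of the other roles after the shift. The summed scaled FPKM of the 4 SSA genes was 1164 before the shift, 4086 after 10 min and 3795 after 60 min. That of the 3 J-domain genes was 480.2, 797 and 424 at these times, and that of the 3 exchange factor genes was 1244, 3225 and 2594. There were thus 2.42 units of SSA mRNA per unit of mRNA of these J-domain genes before the shift, 5.13 after 10 min and 8.95 after 60 min. Per unit of exchange factor mRNA there were 0.935 before the shift, 1.27 after 10 min and 1.46 after 60 min. These sums leave out the other Hsp70 and J-domain genes of the cell and were not tested. The SSA sum also rests on how fragments shared by SSA1 and SSA2 were counted, which is not known. Among the Hsp70 genes left out, SSB1 and SSB2 had a scaled FPKM of 299 and 409 before the shift and 103 and 167 after 60 min.

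The order of the levels differed before and after the shift. At 0 min it was SSA1, SSE1, SSE2, SSA2, FES1, SIS1, YDJ1, SSA4, SSA3 and APJ1, from high to low per length. The gaps of SSE1 to SSE2 and of SSA4 to SSA3 were the smallest, at ratios of 1.06 and 1.07. At 60 min the order was SSA4, SSA1, SSE2, SSE1, SSA3, SSA2, FES1, YDJ1, SIS1 and APJ1, with SSA1 and SSE2 at a ratio of 1.01 and SSA2 and FES1 at 1.05. With 1 library per time point there is no spread by which such neighbours could be ordered. The places of SSA1 and SSA2 also depend on how their shared fragments were counted. Among all genes tested, SSA4 was above 67.0% at 0 min and above 99.5% at 60 min, and SSA3 above 64.5% and 99.0% at these times. APJ1 was above 23.6% and 46.0%, although its own level was lower at 60 min.

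Other genes of the pathway were counted in 3 lists with the same fits. Of 8 other Hsp70 family genes, 0 rose and 4 fell over the hour, near the 1.6% and 52.8% of all genes, and the median slope was -0.10 log2 units per 10 min, against -0.17 for all genes. The 4 were SSB1 at -0.24 ± 0.05 (adjusted p = 0.00203) and SSB2 at -0.18 ± 0.04 (adjusted p = 0.00426), Hsp70 genes of the ribosome, their partner SSZ1 at -0.10 ± 0.04 (adjusted p = 0.0356), and LHS1 of the endoplasmic reticulum at -0.31 ± 0.05 (adjusted p = 0.001). Over the first 10 min, 1 of the 8 rose and 0 fell, against 1.69% and 27.4% of all genes. It was KAR2, the Hsp70 of the endoplasmic reticulum, at 0.87 ± 0.23 (adjusted p = 0.0424), and it did not pass without any one of the 5 libraries (0.0567 without the 10 min library and 0.0816 without the 6 min library). The call of SSZ1 was lost without the 0, 3, 6, 10, 20 or 60 min library (up to 0.160) and in the values as deposited (-0.04, 0.238), and its slope was 0.04 with libraries scaled to the same summed yeast FPKM. That of SSB2 was lost without the 60 min library (0.062) and at the same summed yeast FPKM (-0.05, 0.200), where SSB1 was at -0.11 and LHS1 at -0.18.

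Of 19 other J-domain genes, 0 rose and 12 fell over the hour, with a median slope of -0.18, and 0 rose and 8 fell over the first 10 min. Among all genes 1.6% rose and 52.8% fell over the hour, and 1.69% and 27.4% over the first 10 min, so that 0 of 19 rising is no more than the share of all genes gives. The steepest 5 over the hour were SEC63 at -0.46 ± 0.07 (adjusted p = 0.000732), SCJ1 at -0.36 ± 0.06 (adjusted p = 0.00101), ERJ5 at -0.36 ± 0.07 (adjusted p = 0.00168) and JEM1 at -0.34 ± 0.08 (adjusted p = 0.0045), all for J-domain proteins of the endoplasmic reticulum, and JJJ1 at -0.31 ± 0.07 (adjusted p = 0.00384), whose product acts in ribosome biogenesis. With libraries scaled to the same summed yeast FPKM, SCJ1 was at -0.24 and ERJ5 at -0.23.

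Of 13 partners and regulators of cytosolic Hsp70, 5 rose and 4 fell over the hour, against 1.6% and 52.8% of all genes, with a median slope of -0.01. Over the first 10 min 5 rose (STI1, HSP104, HSP82, HSP26 and HSP42) and 3 fell (CNS1, CPR7 and MSN4), against 1.69% and 27.4%, with a median slope of 0.55. HSP26, a small heat shock protein gene, rose by 0.44 ± 0.10 (adjusted p = 0.00327 in limma) over the hour. Over the first 10 min it rose by 2.03 ± 0.22 (adjusted p = 0.0206), or 1.77 without the 0 min library (adjusted p = 0.298). HSP82, for Hsp90, rose by 0.30 ± 0.09 (adjusted p = 0.0163) over the hour and by 1.91 ± 0.33 over the first 10 min (adjusted p = 0.023), or 1.20 without the 0 min library (adjusted p = 0.323). STI1, which joins Hsp70 to Hsp90, HSP104, a disaggregase that works with Hsp70, and HSC82 were the other 3 that rose over the hour. Their slopes in limma were 0.21 ± 0.07 (adjusted p = 0.0241), 0.23 ± 0.08 (adjusted p = 0.0254) and 0.13 ± 0.05 (adjusted p = 0.0393). CNS1, for a cochaperone of Hsp90, had -0.46 ± 0.07 (adjusted p = 0.000953), SNL1, for an exchange factor of the endoplasmic reticulum membrane, -0.43 ± 0.11 (adjusted p = 0.0093), and CPR7, for a cyclophilin that binds Hsp90, -0.32 ± 0.06 (adjusted p = 0.00202), or -0.19 at the same summed yeast FPKM. MSN4, for a stress transcription factor, was the fourth that fell, at -0.22 ± 0.07 (adjusted p = 0.0236). STI1, HSP104, HSC82, HSP42 and MSN4 were not followed under the alternative settings.

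The profile of the 10 genes, as the mean of their standardized log2 levels over the 10 libraries, was compared with 4518 other genes with a mean scaled FPKM of at least 10. The most similar were RPN4 (Pearson's r = 0.981), AHA1 (0.972), CTH1 (0.964), SUC2 (0.964) and ERO1 (0.955). RPN4 encodes a regulator of proteasome genes and AHA1 an activator of Hsp90. RPN4 had a scaled FPKM of 219 before the shift, 397 after 10 min and 305 after 60 min, and AHA1 had 175, 391 and 312 at these times. The points of these correlations share libraries and scaling factors. Among the 10 genes themselves, SSA1 with SSA2 (r = 0.974), SSA4 with SSE2 (0.970), SIS1 with APJ1 (0.951) and SSA3 with SSE1 (0.944) were the closest pairs. SSA3 with SIS1 was the most opposed (-0.475). Fragments of SSA1 and SSA2 cannot be fully told apart, so their correlation may not be that of separate measurements.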

How the data were processed

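RNA extracted as total RNA was given ERCC spike-ins, and libraries were sequenced as read pairs. The deposited FPKM values were made by the authors with Bowtie 0.12.7 on SacCer2 and Cufflinks 1.3.0. The labels name a stranded mRNA and a stranded total RNA kit without saying which was used here. The treatment of reads with several matches is not given in the sources used here.

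FPKM values were divided by the ERCC sum of their library relative to 0 min. On the scale of log2(FPKM + 1), slopes over time were fitted for 6045 yeast genes with a mean of at least 1 (limma 3.58.1, R 4.3.3), and adjusted p-values over all of them were compared with 0.05. The scripts were tested on simulated data. Of 6717 genes, 6025 matched R64, whose coordinates and sequences were read by gene name; no SacCer2 coordinate was used. Fragments were estimated from low FPKM of genes with 1 coding exon of at least 900 bases, less 180 bases, with 92.0 to 98.1% of low values within 0.1 of a whole number. Python 3.11.15, numpy 2.4.6, pandas 2.3.3 and scipy 1.17.1 were used. Half-lives followed the study's fit (residual at most 0.14, at most 60 min).

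The members, lists and tests were chosen with earlier results of these data known. Named besides the 10 genes are POP2, HIS3, the 5 genes most like them, and in each list those that passed over the hour or the first 10 min, at most 5 by slope, with the other partners and regulators named after their values were seen. The motif window of 500 bases was set after levels had been seen. Alternatives were other scalings, a pseudocount of 0.1, no filter, other time terms and leaving out each library.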

Additional observations from a re-analysis of the deposited data

How the results depend on the processing

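No paired analysis was possible because the time points hold no replicates to pair.

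Over 0 to 60 min, 4 of the 10 genes passed. The count was 9 with a spline, and 2 to 5 with each library left out. Over 0 to 10 min 7 passed, and 0 to 6 with each library left out. Over 15 to 60 min it was 0 under all 11 alternatives tried. Among all genes the 97 rising over the hour were 298 as deposited and 721 at the same summed yeast FPKM, where the 3189 falling were 1504, and 54 to 109 with each library left out. The 102 rising and 1655 falling over 0 to 10 min were 191 and 2023 as deposited, 210 and 1720 at the same sum, 0 to 84 and 0 to 3557 with each library left out. A trend in the limma spread, chosen after seeing the data, gave 9 of 10 genes over 0 to 10 min. Signs changed for slopes close to 0. FES1 over the hour, -0.06, was 0.0075 as deposited, 0.0802 at the same sum and 0.0198 per square root of time, and -0.162 to 0.0489 with each library left out. SSZ1 was 0.0365 at the same sum. SSA2 over the hour ran between -0.0218 and 0.123 and YDJ1 over 0 to 10 min between -0.0302 and 0.343 with each library left out. Over 15 to 60 min, as deposited and at the same sum, YDJ1 was 0.0130 and 0.0602 and SSE2 0.0379 and 0.0852, and at the same sum SSA1 was 0.0272 and SSA2 0.0025. With each library left out in that range SSA1 ran between -0.103 and 0.0496, SSA4 between -0.0280 and 0.0786, YDJ1 between -0.0661 and 0.0099 and SSE2 between -0.0245 and 0.0508.

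With each library left out, the SSA1/SSA2 slope ran between 0.0287 and 0.0561, SSA4/SSA2 between 0.181 and 0.503, SSE2/SSE1 between -0.0287 and 0.0555 and APJ1/YDJ1 between -0.374 and -0.218. The median level of the 10 genes at 60 min, 1.59, was 2.26 as deposited and 3.02 at the same sum. The causes were not tested. Depth limits APJ1 most.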

Other observations

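Upstream runs of 3 alternating GAA and TTC units are not particular to the Hsp70 machinery. Of 80 other tested genes with such a run in the 500 bases before the start codon, 10 rose over the first 10 min (12.5%), against 1.69% of all genes, with a median slope of -0.36 log2 units per 10 min, against -0.68 for all genes. By slope they were BTN2, HSP42, HSP78, HSP104, STI1, ZPR1, AHA1, TSL1, KAR2 and CYB2. Several of these encode chaperones or their partners, such as HSP78 of the mitochondrial matrix and HSP42, a small heat shock protein gene. The search was made after the levels of these genes had been seen, and no test was run on it.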
